A study of Mus musculus with 12 samples.

Results

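The D-type cyclins and the inhibitors of their kinases were followed in MC38 cells, a mouse colon adenocarcinoma line, as the 9 entries of the deposited expression table with the symbols Ccnd1, Ccnd2, Ccnd3, Cdkn1b, Cdkn1c, Cdkn2a, Cdkn2b, Cdkn2c and Cdkn2d, out of 42329 entries in all. The cells carried a guide RNA against Hcar1 (sgHcar1), which encodes a lactate receptor, or a control guide (sgControl), and received 20 mM lactate or PBS, its saline vehicle, for 24 hours. RNA sequencing of 3 libraries for each combination gave the groups sgHcar1 lactate, sgHcar1 PBS, sgControl lactate and sgControl PBS, 12 libraries in all. All 4 groups share the MC38 background and carry a guide RNA. No label tells whether a group's libraries came from separate cultures, or whether a guide population was a pool or a clone, so p-values here measure the spread between these libraries alone.

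D-type cyclins are the regulatory partners of the kinases CDK4 and CDK6. They are made in response to growth signals, and the active kinases phosphorylate the retinoblastoma protein, which releases E2F factors and lets cells pass from G1 into S phase. The INK4 proteins (p16INK4a from Cdkn2a, p15 from Cdkn2b, p18 from Cdkn2c and p19 from Cdkn2d) bind CDK4 and CDK6 and block the pairing with cyclin D. The CIP/KIP proteins (p21 from Cdkn1a, p27 from Cdkn1b and p57 from Cdkn1c) bind cyclin and CDK pairs and inhibit CDK2 above all.

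Values are FPKM, fragments scaled to the length of the gene model and to the fragments of the library, so levels of different genes are set side by side per length. Each change is given as a difference of log2(FPKM + 1), with its standard error, fitted with limma. That scale makes the changes of low genes look smaller. P-values had Benjamini-Hochberg adjustment over the 13736 genes that reached 1 FPKM in at least 3 libraries. Of the 9 members, 6 passed this filter: the 3 cyclin genes, Cdkn1b, Cdkn2c and Cdkn2d. Each of these was above 4 FPKM in every library, so none was tested only because of the group in which it was high. Cdkn1c, Cdkn2a and Cdkn2b lay below the filter.

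No read counts were given; relative depth, estimated from the steps between low values, ran between 0.746 and 1 of the deepest library. Library sums of FPKM lay between 411996.2 and 421984.3 in sgHcar1 lactate, 362814.6 and 367976.7 in sgHcar1 PBS, 310109 and 317330.3 in sgControl lactate, and 322359.4 and 324562.3 in sgControl PBS. Setting all sums to 1000000 moved the median change of all genes to -0.12 for lactate in sgHcar1 cells and 0.04 in sgControl cells. The median became -0.20 for the difference between these effects, -0.16 between guides in PBS and -0.37 between guides in lactate. Member calls that this scaling ended or turned are named below. Hcar1 could not serve as a check of the guide, since it had a value above 0 in 1 library only, at 0.0196 FPKM. Of the colon epithelial markers, Epcam and Cdx2 were listed at 0 in every library. The summed level of the 10 epithelial markers with an entry was 110.6 to 114.5 FPKM in sgHcar1 lactate, 44.9 to 48.7 in sgHcar1 PBS, 4.996 to 5.39 in sgControl lactate and 3.13 to 3.40 in sgControl PBS, and Krt18, a keratin, made up most of it in sgHcar1 cells. Of the 3 tested epithelial markers Krt18 was higher in sgHcar1 than in sgControl cells, in PBS and in lactate, and Cdh1 and Krt19, both listed at 0 in all sgHcar1 libraries, were lower. Each of these 3 passed the filter only through the guide in which it was higher, so the directions of these calls carry no support. The 10 fibroblast markers summed to 81.5 to 86.4 FPKM in sgHcar1 lactate, 185 to 195.5 in sgHcar1 PBS, 238.2 to 252.6 in sgControl lactate and 275.8 to 285.8 in sgControl PBS, with 2 of the 10 (Lum and Thy1) at 0 in every library. Of the 7 tested, Col1a1 and Col1a2 were higher in sgHcar1 than in sgControl cells and 5 were lower, in PBS and in lactate. The 10 leukocyte markers with an entry summed to 8.27 to 10.8 FPKM in sgHcar1 lactate, 9.67 to 9.92 in sgHcar1 PBS, 19.9 to 21 in sgControl lactate and 16.3 to 16.7 in sgControl PBS. Both tested ones, Cd14 and Cd68, were lower in sgHcar1 than in sgControl cells under both treatments, while Ptprc (CD45) was at 0.0063 FPKM or less in each library. These marker sums moved with guide and treatment, and their part in the results below was not tested.

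Promoters are shown for the 3 inhibitor genes among the members that passed the filter. They span 250 bases before to 50 bases after a transcription start, in RefSeq's annotation of GRCm38.p6, whose promoter table held 6 of the 9 members. Capitals mark matches to 7 short motifs, searched on both strands: E2F (TTTNNCGC), the CHR element of mitotic genes (TTTGAA), AP-1 (TGANTCA), E-box (CACGTG), C/EBP-ATF (TGATGNAA), GC box (GGGCGG) and CCAAT box (ATTGG). Cdkn2c has 2 annotated starts, with windows at chr4:109666707-109667006 and chr4:109665323-109665622, both on the minus strand. The Cdkn2d window lies on the minus strand at chr9:21291160-21291459. Most of the Cdkn2d window falls within the annotated gene, chr9:21288459-21291421. The Cdkn1b window lies on the plus strand at chr6:134920151-134920450.
Cdkn2c, outer start: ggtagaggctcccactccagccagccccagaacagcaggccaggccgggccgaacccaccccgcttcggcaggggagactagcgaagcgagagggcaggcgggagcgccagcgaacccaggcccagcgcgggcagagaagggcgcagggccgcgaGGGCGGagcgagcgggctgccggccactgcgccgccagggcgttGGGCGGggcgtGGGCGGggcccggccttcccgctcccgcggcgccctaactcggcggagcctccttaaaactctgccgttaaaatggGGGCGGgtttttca
Cdkn2c, inner start: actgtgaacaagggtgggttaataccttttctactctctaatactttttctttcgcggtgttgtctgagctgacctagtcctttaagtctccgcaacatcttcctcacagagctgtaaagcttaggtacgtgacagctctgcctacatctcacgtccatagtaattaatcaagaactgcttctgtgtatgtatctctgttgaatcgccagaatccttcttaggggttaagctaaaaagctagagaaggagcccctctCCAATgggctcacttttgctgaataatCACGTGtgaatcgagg
Cdkn2d: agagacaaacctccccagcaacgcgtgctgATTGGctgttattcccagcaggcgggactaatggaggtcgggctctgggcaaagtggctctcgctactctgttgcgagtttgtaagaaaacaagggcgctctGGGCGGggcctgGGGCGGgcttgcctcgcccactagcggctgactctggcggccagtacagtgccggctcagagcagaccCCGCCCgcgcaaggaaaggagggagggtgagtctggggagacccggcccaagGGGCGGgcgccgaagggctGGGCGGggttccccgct
Cdkn1b: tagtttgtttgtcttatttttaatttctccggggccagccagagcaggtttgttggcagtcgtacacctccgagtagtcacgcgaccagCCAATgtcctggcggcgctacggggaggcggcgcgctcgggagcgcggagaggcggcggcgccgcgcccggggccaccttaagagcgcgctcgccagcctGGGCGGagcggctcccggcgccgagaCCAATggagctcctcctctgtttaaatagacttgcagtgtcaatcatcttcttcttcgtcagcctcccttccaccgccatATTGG

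The outer Cdkn2c promoter was 73.3% G or C and held 4 GC boxes. The inner one was 44.0% G or C and held an E-box and a CCAAT box. The Cdkn2d promoter held 5 GC boxes and 1 CCAAT box, and that of Cdkn1b held 1 GC box and 3 CCAAT boxes. None of the 4 windows contained the searched letters of E2F, CHR, AP-1 or C/EBP-ATF. Of 32851 promoters of the same length, 35.7% held a GC box, 37.4% a CCAAT box, 7.15% an E-box, 5.17% the E2F letters and 17.9% the CHR letters, so GC and CCAAT boxes are common. No marked match in these 4 windows overlapped another.

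Among the cyclins, Ccnd1 carried most of the message in every group and had the largest fall of the 3 with lactate in sgHcar1 cells. Ccnd1 (chr7:144929931-144939831, GRCm38.p6), the D cyclin most often linked to growth factor signals and to overexpression in tumours, had 49.98, 53.2 and 47.0 FPKM in sgHcar1 lactate, against 176.3, 171.7 and 179.7 FPKM in sgHcar1 PBS. It had 109, 108.6 and 110.8 FPKM in sgControl lactate, against 224.4, 210.6 and 220.3 FPKM in sgControl PBS. The 4 groups did not overlap, and the lactate libraries were the lower ones in both guide populations. Ccnd1 fell by 1.79 ± 0.04 with lactate in sgHcar1 cells (adjusted p = 2.67e-11) and by 0.99 ± 0.04 in sgControl cells (adjusted p = 4.36e-09).

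Ccnd2 moved the other way, and mostly in sgControl cells. Ccnd2 (chr6:127125162-127152188), which encodes a D cyclin best known from lymphocytes and the ovary, had 28.6, 30.1 and 27.9 FPKM in sgHcar1 lactate, against 24.8, 24.3 and 25.7 FPKM in sgHcar1 PBS. In sgControl lactate it had 20.4, 20.6 and 20.2 FPKM, against 6.77, 6.13 and 5.69 FPKM in sgControl PBS. The sgControl PBS libraries stood far below the other 9, and no groups overlapped. The rise with lactate was 1.57 ± 0.05 in sgControl cells (adjusted p = 5.68e-10), rank 178 from the top of 13736 genes. In sgHcar1 cells it was 0.20 ± 0.05 (adjusted p = 3.90e-03), a call that ended with quantile normalization (0.08, adjusted p = 2.01e-01) and with library sums set equal (0.02, adjusted p = 7.52e-01).

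Ccnd3 (chr17:47505051-47599689), the most widely expressed D cyclin across differentiated tissues, had 5.14, 5.16 and 5.36 FPKM in sgHcar1 lactate, against 15.9, 15.4 and 15.4 FPKM in sgHcar1 PBS. It had 4.45, 4.42 and 4.08 FPKM in sgControl lactate, against 10.9, 10.3 and 10.3 FPKM in sgControl PBS. Lactate libraries were low in both populations, with no overlap between any groups. Ccnd3 fell by 1.41 ± 0.04 with lactate in sgHcar1 cells (adjusted p = 8.17e-11) and by 1.11 ± 0.04 in sgControl cells (adjusted p = 1.06e-09). Each cyclin gene overlaps another annotated gene, and whether fragments were counted by strand is not given in the sources used here. The protein-coding partners were LTO1 beside Ccnd1 (entry Oraov1, at most 4.39 FPKM in any group mean) and Bysl beside Ccnd3. Bysl averaged 16.1 ± 0.869 FPKM in sgHcar1 lactate and 8.36 ± 0.528 in sgHcar1 PBS, and 14.5 ± 0.913 in sgControl lactate and 11.1 ± 0.423 in sgControl PBS. The Bysl means were higher in lactate than in PBS under both guides, opposite to Ccnd3.

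**Figure D1:**
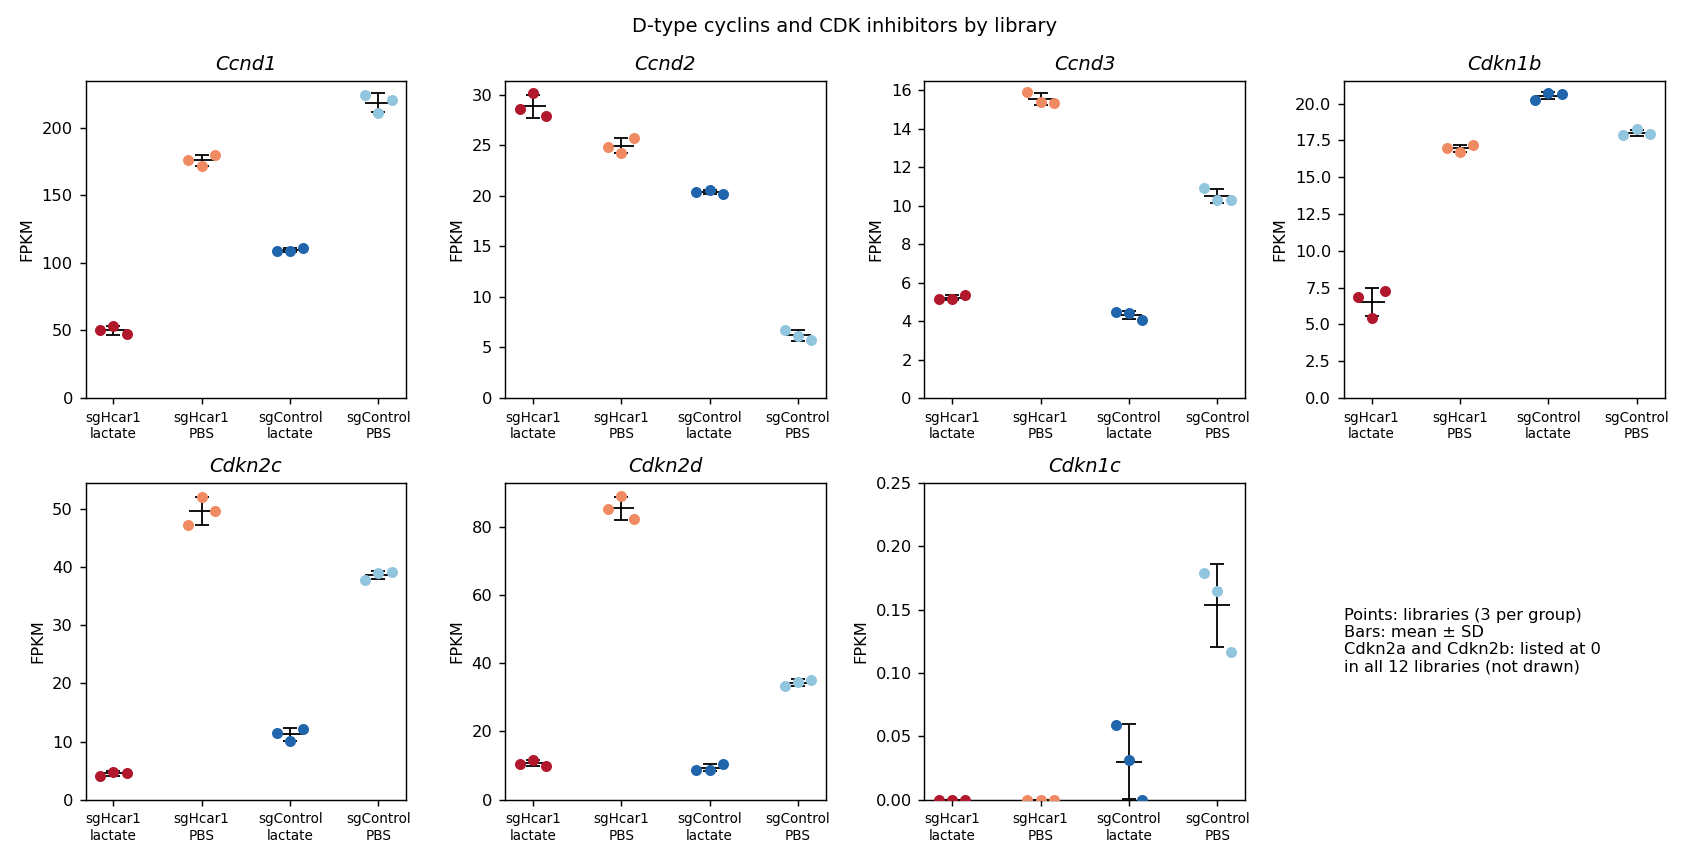
FPKM of the 7 members with any value above 0, in each of the 12 libraries (points), with group means and SD (bars, n = 3); each panel has its own axis from 0. Ccnd1, Ccnd3, Cdkn2c and Cdkn2d are lower in lactate than in PBS under both guides, Ccnd2 is lowest in sgControl PBS, and Cdkn1b is low in sgHcar1 lactate alone.

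Summed over the 3 genes, D cyclin message was 84.1 ± 4.15 FPKM in sgHcar1 lactate and 216 ± 4.76 in sgHcar1 PBS, and 134 ± 0.826 in sgControl lactate and 235 ± 7.62 in sgControl PBS (SD, n = 3 each). The shares of the 3 genes also differed between groups. Ccnd1 held 59.5% ± 0.796 of the sum in sgHcar1 lactate and 81.3% ± 0.0839 in sgHcar1 PBS, against 81.6% ± 0.395 in sgControl lactate and 92.9% ± 0.293 in sgControl PBS. Ccnd2 held 34.3% ± 0.372 in sgHcar1 lactate and 11.5% ± 0.119 in sgHcar1 PBS, against 15.2% ± 0.235 in sgControl lactate and 2.64% ± 0.202 in sgControl PBS. The share of Ccnd3 stayed between 3.02% and 7.32% in all libraries. These sums and shares are descriptions without a test, and the shares do not depend on the scaling between libraries.

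**Figure D2:**
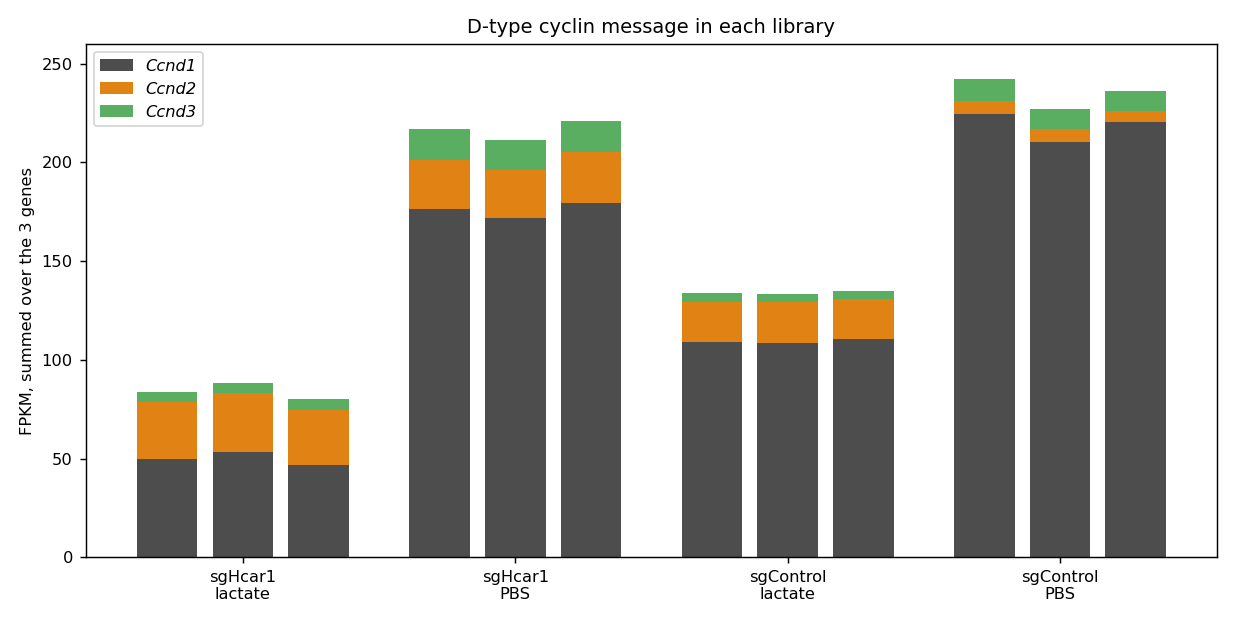
D-type cyclin message in each of the 12 libraries, as FPKM summed over Ccnd1, Ccnd2 and Ccnd3 (stacked bars from 0). The sgHcar1 lactate bars reach 80.2 to 88.5 FPKM with the largest Ccnd2 part, and the sgControl PBS bars reach 227 to 242.1 FPKM, nearly all Ccnd1.

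Both expressed INK4 genes fell strongly with lactate, and in sgHcar1 cells their changes were among the lowest of the 13736 tested genes. Cdkn2c (chr4:109660876-109666756), whose product p18 is known from cell cycle exit in differentiating muscle and plasma cells, had 4.08, 4.81 and 4.64 FPKM in sgHcar1 lactate, against 47.1, 52.0 and 49.7 FPKM in sgHcar1 PBS. It had 11.5, 10.0 and 12.1 FPKM in sgControl lactate, against 37.8, 39.0 and 39.2 FPKM in sgControl PBS. All 4 groups were apart, with sgHcar1 cells at both the high end and the low end. Cdkn2c fell by 3.20 ± 0.07 with lactate in sgHcar1 cells (adjusted p = 1.48e-11), the third lowest change of 13736 genes, and by 1.70 ± 0.07 in sgControl cells (adjusted p = 2.94e-09), rank 50 from the bottom.

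Cdkn2d (chr9:21288459-21291421), whose product p19 is an INK4 protein that oscillates through the cell cycle, had 10.6, 11.7 and 9.87 FPKM in sgHcar1 lactate, against 85.2, 88.8 and 82.1 FPKM in sgHcar1 PBS. It had 8.80, 8.79 and 10.5 FPKM in sgControl lactate, against 33.3, 34.6 and 35.1 FPKM in sgControl PBS. The PBS groups were far apart, whereas the lactate groups overlapped. Cdkn2d fell by 2.89 ± 0.07 with lactate in sgHcar1 cells (adjusted p = 3.50e-11), rank 9 from the bottom. In sgControl cells Cdkn2d fell by 1.77 ± 0.07 (adjusted p = 2.78e-09), rank 43 from the bottom.

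The other 2 INK4 genes, Cdkn2a (chr4:89274473-89294619) and Cdkn2b (chr4:89306289-89311032), were listed at 0 in all 12 libraries. Cdkn2a has promoters for both p16INK4a and the p53 activator p19ARF, and the table gives 1 entry for the gene, so the transcripts cannot be told apart. The neighbouring Mtap, an enzyme of the methionine salvage pathway, averaged 50.7 ± 0.474 FPKM in sgHcar1 lactate and 114 ± 4.16 in sgHcar1 PBS, and 57.4 ± 1.80 in sgControl lactate and 56.6 ± 1.65 in sgControl PBS (SD, n = 3 each). Mtap fell by 1.16 ± 0.03 with lactate in sgHcar1 cells (adjusted p = 1.26e-10), and its change in sgControl cells was 0.02 ± 0.03 (adjusted p = 6.35e-01). Gm12610, a long noncoding RNA that overlaps Cdkn2b, averaged 0.205 ± 0.257 FPKM in sgHcar1 lactate and 0.181 ± 0.170 in sgHcar1 PBS, and 3.64 ± 1.07 in sgControl lactate and 1.73 ± 0.425 in sgControl PBS. Of 70 ribosomal protein entries, picked by symbol, 1 was also at 0 in every library. That entry was not identified, so the count does not tell whether an expressed gene can be listed at 0. A listed 0 alone was not taken to show that Cdkn2a or Cdkn2b was silent or lost.

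Summed INK4 message, which is Cdkn2c plus Cdkn2d here, was 15.2 ± 1.11 FPKM in sgHcar1 lactate and 135 ± 5.07 in sgHcar1 PBS, and 20.6 ± 1.95 in sgControl lactate and 73.0 ± 1.68 in sgControl PBS (SD, n = 3 each). INK4 message was lower in lactate by a larger factor than D cyclin message under both guides. The ratio of D cyclin to INK4 message was 5.54 ± 0.177 in sgHcar1 lactate and 1.61 ± 0.0924 in sgHcar1 PBS, and 6.55 ± 0.571 in sgControl lactate and 3.23 ± 0.164 in sgControl PBS. The lactate libraries were all above the PBS libraries of their guide, and above all PBS libraries. The ratio is a description without a test.

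Of the CIP/KIP genes, Cdkn1b fell with lactate in sgHcar1 cells and not in sgControl cells. Cdkn1b (chr6:134920401-134925525), the gene of the CDK2 inhibitor p27, had 6.83, 5.47 and 7.26 FPKM in sgHcar1 lactate, against 17.0, 16.7 and 17.2 FPKM in sgHcar1 PBS. It had 20.3, 20.7 and 20.6 FPKM in sgControl lactate, against 17.9, 18.3 and 17.9 FPKM in sgControl PBS. The sgHcar1 lactate libraries stood well below the other 9, which lay between 16.7 and 20.7 FPKM. Cdkn1b fell by 1.26 ± 0.07 with lactate in sgHcar1 cells (adjusted p = 2.48e-08). The change in sgControl cells was 0.18 ± 0.07 (adjusted p = 4.34e-02), and it missed the threshold under 13 of 22 alternatives, with adjusted p up to 1.04e-01.

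Cdkn1c (chr7:143458339-143461059), the imprinted gene of p57, was listed at 0 in the 3 sgHcar1 lactate and the 3 sgHcar1 PBS libraries. It had 0.0591, 0.0311 and 0 FPKM in sgControl lactate, against 0.179, 0.165 and 0.117 FPKM in sgControl PBS. After correction for relative depth these values were 2, 1 and 0 times the smallest one in sgControl lactate and 6, 5 and 4 times it in sgControl PBS, so they stand for very few fragments. Over both treatments together, the difference between the guides, sgHcar1 minus sgControl, was -0.0917 FPKM (exact two-sided permutation test on 6 against 6 libraries without regard to treatment, p = 0.0152). With 7 of the 12 libraries at 0, this is the smallest p that the tied values allow. Without ties the smallest p of this permutation test would be 0.00216. Lactate minus PBS, over both guides together, was -0.0617 FPKM (exact permutation p = 0.182). The sgHcar1 libraries were at 0 under both treatments and so add no difference to this value. In sgControl cells alone the lactate libraries were all below the PBS libraries. No test was run there, since an exact permutation test of 3 against 3 libraries cannot go below p = 0.10. Phlda2, a growth-restraining gene of the same imprinted cluster, averaged 0.0333 FPKM in sgHcar1 lactate and was listed at 0 in sgHcar1 PBS, and it averaged 3.95 FPKM in sgControl lactate and 3.43 FPKM in sgControl PBS.

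Cdkn1a is no member, but it dominated the CIP/KIP message. This p53 target gene of the CDK inhibitor p21 averaged 214 ± 6.91 FPKM in sgHcar1 lactate and 113 ± 0.185 in sgHcar1 PBS, and 73.3 ± 3.47 in sgControl lactate and 48.5 ± 0.868 in sgControl PBS (SD, n = 3 each). It rose by 0.92 ± 0.04 with lactate in sgHcar1 cells (adjusted p = 1.13e-09) and by 0.58 ± 0.04 in sgControl cells (adjusted p = 7.95e-08). Cdkn1b therefore held 2.96% ± 0.486 of the message of the 3 CIP/KIP genes in sgHcar1 lactate and 13.1% ± 0.162 in sgHcar1 PBS, against 21.9% ± 0.678 in sgControl lactate and 27% ± 0.215 in sgControl PBS. Once p21, p27 and p57 are added to the INK4 genes, the ratio of D cyclin to inhibitor message was 0.357 ± 0.00993 in sgHcar1 lactate and 0.818 ± 0.0319 in sgHcar1 PBS, and 1.17 ± 0.0447 in sgControl lactate and 1.68 ± 0.0773 in sgControl PBS. With Cdkn1a included, lactate libraries were below the PBS libraries of their guide, the reverse of the ratio to INK4 message alone.

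Set against all genes, lactate in sgHcar1 cells called 6 of the 6 tested members, 1 higher and 5 lower, where 72.2% of the 13736 genes were called, 36.8% higher and 35.4% lower. With so many genes called, a call by itself says little, so sizes are given too. At least 2-fold lower were 5 members, against 6.16% of all genes, and none was 2-fold higher, against 8.83%. The members were chosen with earlier results of these data known, so the shares set side by side here and below are descriptions. In sgControl cells, 6 of 6 were called, 2 higher and 4 lower, beside 65.7% of all genes, 33.9% higher and 31.9% lower. There, Ccnd3, Cdkn2c and Cdkn2d were at least 2-fold lower, as were 2.95% of all genes, and Ccnd2 was at least 2-fold higher, as were 4.26%. In every lactate comparison of a tested member the libraries did not overlap, which held for 37.7% of genes upward and 35.9% downward in sgHcar1 cells and for 36.2% upward and 34.0% downward in sgControl cells.

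The lactate effects differed between the guide populations for all 6 tested members, in each case toward a lower value in sgHcar1 cells, beside 59.1% of all genes called, 30.4% higher and 28.7% lower. The difference, sgHcar1 minus sgControl, was -1.50 ± 0.10 for Cdkn2c (adjusted p = 3.91e-07), -1.44 ± 0.10 for Cdkn1b (adjusted p = 6.59e-07) and -1.37 ± 0.07 for Ccnd2 (adjusted p = 9.99e-08). For Ccnd2 this stands for a large rise in sgControl cells beside a small one in sgHcar1 cells, and for Cdkn1b for a fall in sgHcar1 cells beside a small upward change. The difference was -1.12 ± 0.10 for Cdkn2d (adjusted p = 3.98e-06), -0.80 ± 0.06 for Ccnd1 (adjusted p = 9.93e-07) and -0.30 ± 0.06 for Ccnd3 (adjusted p = 7.86e-04), all of which fell in both populations and further in sgHcar1 cells. Cdkn2c, Cdkn1b, Ccnd2 and Cdkn2d differed by at least 2-fold downward, as did 3.59% of all genes, and no member did so upward, against 4.19%. All 6 calls held under each of 21 alternatives, scaling included, with adjusted p up to 4.46e-03 for Ccnd3.

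**Figure D3:**
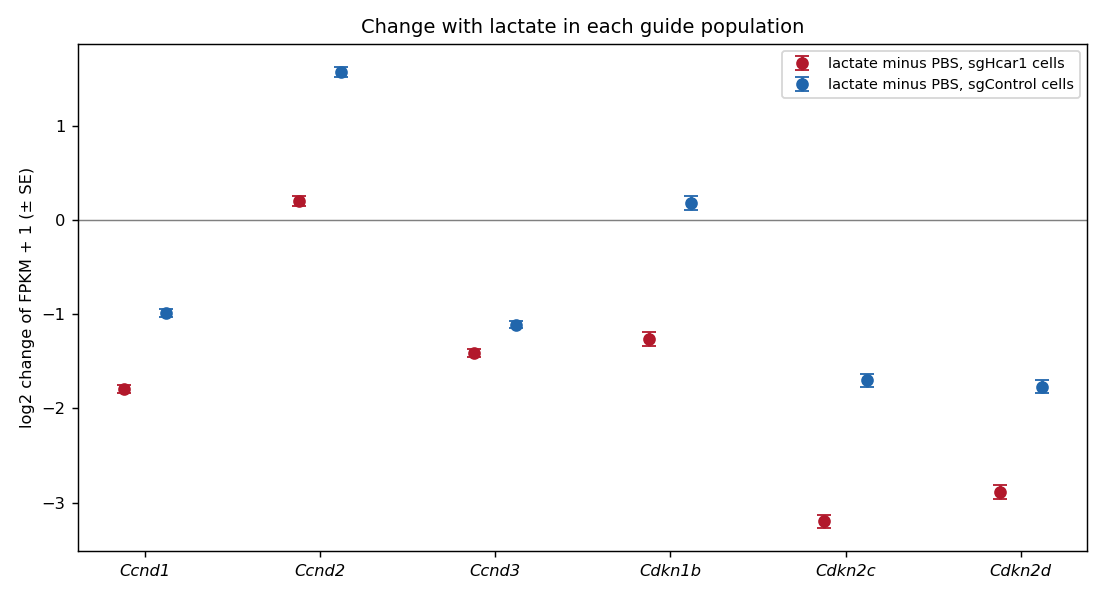
Change with lactate, as log2 of FPKM + 1 in lactate minus PBS (± SE from limma, 3 libraries a group), for the 6 tested members in sgHcar1 cells (red) and sgControl cells (blue). The red point is the lower one for every gene, and the widest gaps are those of Cdkn2c, Cdkn1b and Ccnd2.

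Comparing the guides within a treatment uses the same 12 libraries again. In PBS, sgHcar1 against sgControl called 5 of 6 tested members, 4 higher and 1 lower, beside 76.7% of all genes, 38.2% higher and 38.4% lower. Ccnd2 was higher by 1.85 ± 0.05 (adjusted p = 4.58e-11), Cdkn2d by 1.29 ± 0.07 (adjusted p = 1.62e-08), Ccnd3 by 0.53 ± 0.04 (adjusted p = 2.28e-07) and Cdkn2c by 0.35 ± 0.07 (adjusted p = 6.32e-04). Ccnd1 was lower, at -0.31 ± 0.04 (adjusted p = 3.68e-05). Ccnd2 and Cdkn2d were at least 2-fold higher, as were 8.68% of all genes, and none was 2-fold lower, against 11.5%. The libraries of the guides did not overlap for any of the 6, which held for 39.6% of genes upward and 39.6% downward. Cdkn1b was at -0.08 ± 0.07 (adjusted p = 3.11e-01), and it passed as lower with library sums set equal (-0.26, adjusted p = 8.71e-03), with only the compared groups in the fit (adjusted p = 3.07e-02) or without sgHcar1 lactate replicate 2 (adjusted p = 2.62e-02).

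In lactate, sgHcar1 against sgControl called 6 of 6, 3 higher and 3 lower, beside 82.2% of all genes, 41.3% higher and 40.9% lower. With library sums set equal, 0 members were higher and 5 lower. Cdkn1b was at -1.53 ± 0.07 (adjusted p = 2.96e-09), Cdkn2c was at -1.15 ± 0.07 (adjusted p = 2.55e-08) and Ccnd1 at -1.12 ± 0.04 (adjusted p = 4.83e-10). All 3 of these were at least 2-fold lower, as were 14.5% of all genes, and none was 2-fold higher, against 12.8%. Libraries did not overlap except for Cdkn2d, beside 41.3% of all genes upward and 41.0% downward. Ccnd2 was higher by 0.48 ± 0.05 (adjusted p = 4.00e-06), a call that ended with library sums set equal (0.09, adjusted p = 1.88e-01). Ccnd3 was higher by 0.23 ± 0.04 (adjusted p = 2.30e-04), and with library sums set equal it was lower (-0.13, adjusted p = 2.32e-02). Cdkn2d was higher by 0.17 ± 0.07 (adjusted p = 3.87e-02) with overlapping libraries, lost this call under 9 of 22 alternatives and was lower with library sums set equal (-0.21, adjusted p = 1.70e-02).

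Of the kinases, Cdk4 fell and Cdk6 rose with lactate in both populations. Cdk4, the main D cyclin kinase here, averaged 145 ± 3.42 FPKM in sgHcar1 lactate and 210.1 ± 5.89 in sgHcar1 PBS, and 84.6 ± 1.98 in sgControl lactate and 115 ± 2.03 in sgControl PBS. It fell by 0.53 ± 0.03 with lactate in sgHcar1 cells (adjusted p = 2.67e-08) and by 0.43 ± 0.03 in sgControl cells (adjusted p = 2.44e-07), and the difference of these effects was -0.10 ± 0.04 (adjusted p = 6.71e-02). That difference passed under 5 of 21 alternatives, reaching -0.33 with library sums set equal (adjusted p = 8.65e-05). Cdk6, its close relative, was low, at 3.79 ± 0.323 FPKM in sgHcar1 lactate and 1.81 ± 0.309 in sgHcar1 PBS, and 4.10 ± 0.508 in sgControl lactate and 2.84 ± 0.312 in sgControl PBS. It rose by 0.77 ± 0.10 in sgHcar1 cells (adjusted p = 2.89e-05) and by 0.41 ± 0.10 in sgControl cells (adjusted p = 3.81e-03). Rb1, the gene of the retinoblastoma protein, rose by 0.33 ± 0.04 in sgHcar1 cells (adjusted p = 3.76e-05) and by 0.13 ± 0.04 in sgControl cells (adjusted p = 2.37e-02), a call lost under 4 of 22 alternatives, with adjusted p up to 1.51e-01.

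Of the 14 genes listed as cyclin D kinases, pocket proteins and their next partners, 6 rose, 7 fell and 1 was not called with lactate in sgHcar1 cells, with a median change of -0.20 beside 0.00 over all genes. In sgControl cells 6 rose and 8 fell, with a median of -0.27. The largest falls were those of the E cyclins, which drive CDK2 at the start of S phase: Ccne1 fell by 2.07 ± 0.07 in sgHcar1 cells and 1.83 ± 0.07 in sgControl cells, and Ccne2 fell by 1.76 ± 0.08 in sgHcar1 cells and 1.49 ± 0.08 in sgControl cells. Cdk2 itself fell by 0.97 ± 0.04 in sgHcar1 cells and 0.68 ± 0.04 in sgControl cells. Adjusted p for these 3 genes lay between 5.20e-10 and 6.60e-08. Beside the list's counts, 36.8% of all genes were higher and 35.4% lower in sgHcar1 cells, and 33.9% higher and 31.9% lower in sgControl cells.

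Among 17 E2F and DREAM factors, which switch cell cycle genes on and off, 2 rose, 9 fell and 6 were not called in sgHcar1 cells, with a median of -0.26. In sgControl cells 2 rose, 10 fell and 5 were not called, with a median of -0.32. Over all genes, 36.8% were higher and 35.4% lower in sgHcar1 cells, and 33.9% higher and 31.9% lower in sgControl cells. E2f8, a repressor that is itself made in S phase, fell by 2.48 ± 0.06 in sgHcar1 cells (adjusted p = 5.26e-11) and by 1.31 ± 0.06 in sgControl cells (adjusted p = 1.37e-08). E2f7, its partner, fell by 1.47 ± 0.06 in sgHcar1 cells (adjusted p = 3.34e-09) and by 0.83 ± 0.06 in sgControl cells (adjusted p = 6.06e-07).

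Genes that act downstream of the cyclin D kinases were lower with lactate in both populations. Of 28 tested genes of S phase, 24 fell, 1 rose and 3 were not called in sgHcar1 cells, with a median of -0.80, and 28 of 28 fell in sgControl cells, with a median of -0.85. Ccna2, the gene of cyclin A2, fell by 3.01 ± 0.04 in sgHcar1 cells (adjusted p = 9.11e-13) and by 1.75 ± 0.04 in sgControl cells (adjusted p = 3.75e-11). Rrm2, which supplies deoxynucleotides, fell by 1.88 ± 0.05 in sgHcar1 cells (adjusted p = 7.86e-11) and by 1.44 ± 0.05 in sgControl cells (adjusted p = 1.26e-09). All 22 genes of G2 and mitosis fell in both populations, with medians of -1.82 in sgHcar1 cells and -1.29 in sgControl cells, and 21 of them in sgHcar1 cells and 17 in sgControl cells were at least 2-fold lower. Of all genes, 36.8% were higher and 35.4% lower in sgHcar1 cells, and 33.9% higher and 31.9% lower in sgControl cells. At least 2-fold lower were 6.16% of all genes in sgHcar1 cells and 2.95% in sgControl cells.

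Plk1, a mitotic kinase, averaged 7.03 ± 0.603 FPKM in sgHcar1 lactate and 69.2 ± 3.86 in sgHcar1 PBS, and 16.9 ± 1.46 in sgControl lactate and 71.4 ± 2.77 in sgControl PBS. Mki67, the usual marker of dividing cells, averaged 14.5 ± 0.331 FPKM in sgHcar1 lactate and 50.8 ± 1.41 in sgHcar1 PBS, and 47.1 ± 0.506 in sgControl lactate and 111 ± 4.03 in sgControl PBS. Of all genes, 28.7% were called with a lower lactate effect in sgHcar1 than in sgControl cells and 30.4% with a higher one. The lactate effect was further down in sgHcar1 cells for 20 of the 22 mitosis genes, higher for 1 and not called for 1, whereas among the 28 S phase genes 7 were called lower, 6 higher and 15 not at all (19 lower and 5 higher with library sums set equal). In cultures measured in bulk, fewer cells in a phase of the cycle and less message per cell cannot be told apart, and the part of these changes in the falls of Cdkn2c, Cdkn2d and Ccnd1 was not tested.

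**Figure D4:**
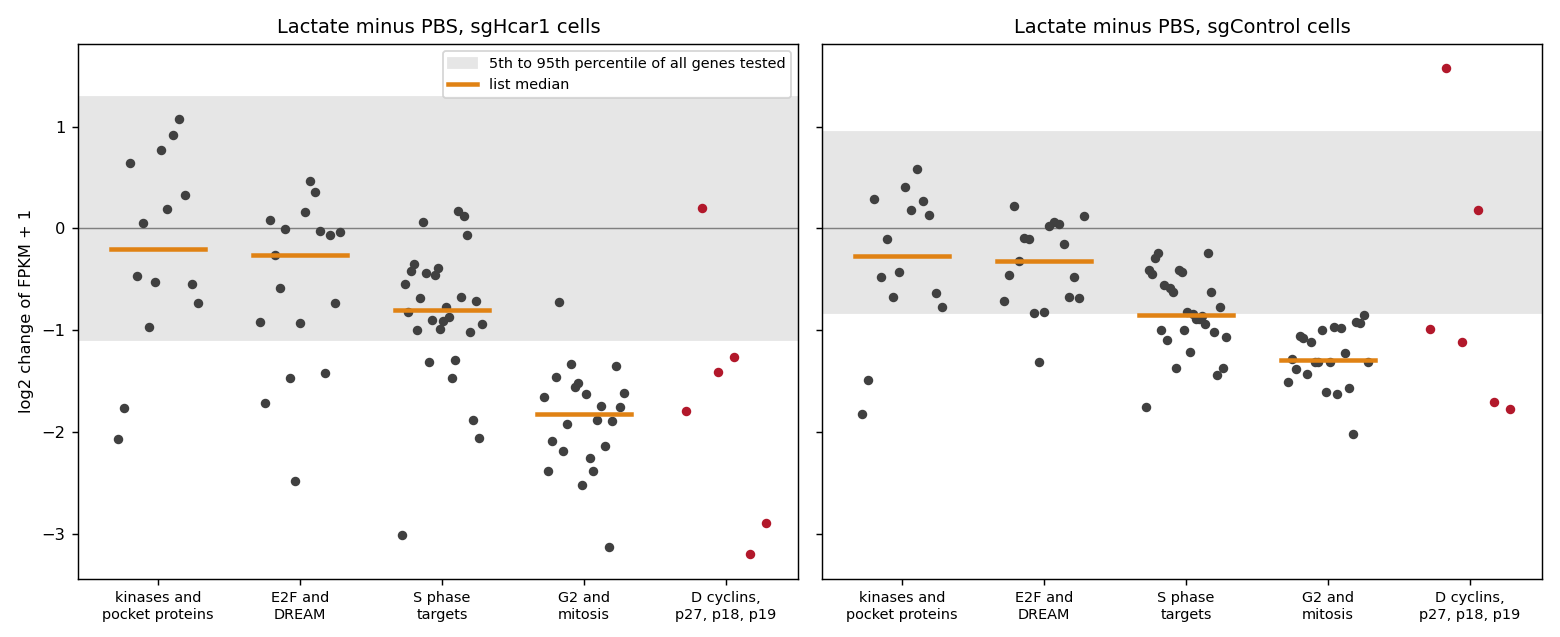
Change with lactate, as log2 of FPKM + 1 in lactate minus PBS, for each tested gene of 4 lists (dark points, orange line at the list median) and for the 6 tested members (red points; from left to right Ccnd1, Ccnd2, Ccnd3, Cdkn1b, Cdkn2c, Cdkn2d), in sgHcar1 cells (left) and sgControl cells (right). The grey band spans the 5th to 95th percentile of all 13736 genes; Ccnd1, Ccnd3, Cdkn2c and Cdkn2d lie below it in both panels and Cdkn1b in sgHcar1 cells alone, as do the mitosis genes except Bub1b in sgHcar1 cells.

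Of 24 tested genes that regulate the cyclin D genes, 14 rose and 5 fell in sgHcar1 cells, where 36.8% of all genes were higher and 35.4% lower, and the list's median was 0.51. In sgControl cells 12 rose and 10 fell, where 33.9% of all genes were higher and 31.9% lower, and the median was 0.15. Egr1, an immediate early factor of growth signals, averaged 290.2 ± 12.96 FPKM in sgHcar1 lactate and 29.6 ± 0.820 in sgHcar1 PBS, and 5.01 ± 0.341 in sgControl lactate and 0.783 ± 0.144 in sgControl PBS. It rose by 3.25 ± 0.06 in sgHcar1 cells (adjusted p = 7.07e-12) and by 1.75 ± 0.06 in sgControl cells (adjusted p = 1.06e-09). Jun, a partner in AP-1 that is known to activate Ccnd1, rose by 1.90 ± 0.06 in sgHcar1 cells (adjusted p = 1.75e-10) and fell by 0.47 ± 0.06 in sgControl cells (adjusted p = 2.71e-05). Ctnnb1, the gene of beta-catenin and also on this list, had lower means in lactate under both guides, as Ccnd1 did. Ctnnb1 averaged 52.09 ± 1.635 FPKM in sgHcar1 lactate and 91.83 ± 2.194 in sgHcar1 PBS. In sgControl cells it averaged 139.5 ± 4.391 FPKM in lactate and 184.8 ± 2.244 in PBS. Links of these genes to Ccnd1 were not tested. Myc, known to raise Ccnd2, rose by 0.57 ± 0.05 in sgHcar1 cells (adjusted p = 2.39e-06) and by 1.41 ± 0.05 in sgControl cells (adjusted p = 2.22e-09), with a difference of -0.84 ± 0.08 (adjusted p = 4.82e-06). Myc and Ccnd2 both had their larger rise in sgControl cells, but the levels of these genes were not ordered alike. Myc averaged 66.7 FPKM in sgHcar1 lactate and 44.7 in sgHcar1 PBS, and 97.2 in sgControl lactate and 36.05 in sgControl PBS. Ccnd2 was highest in sgHcar1 lactate, at a mean of 28.8 FPKM, and averaged 20.4 in sgControl lactate. A link between Myc and Ccnd2 was not tested.

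Of 34 tested regulators of the inhibitor genes, 20 rose, 11 fell and 3 were not called in sgHcar1 cells, and 19 rose, 8 fell and 7 were not called in sgControl cells, with medians of 0.23 in sgHcar1 cells and 0.24 in sgControl cells. Setting library sums equal lowered the median in sgHcar1 cells to 0.07. As deposited, 36.8% of all genes were higher and 35.4% lower in sgHcar1 cells, and 33.9% higher and 31.9% lower in sgControl cells. Ets2, an ETS factor known from human fibroblasts to activate CDKN2A, rose by 2.51 ± 0.05 in sgHcar1 cells (adjusted p = 7.07e-12) and by 2.40 ± 0.05 in sgControl cells (adjusted p = 1.77e-11). Dmtf1, an activator of the ARF promoter, rose by 1.45 ± 0.05 in sgHcar1 cells (adjusted p = 9.17e-10) and by 0.46 ± 0.05 in sgControl cells (adjusted p = 1.92e-05). Id1, which opposes ETS factors at human CDKN2A, fell by 1.00 ± 0.09 in sgHcar1 cells (adjusted p = 2.19e-06) and by 2.22 ± 0.09 in sgControl cells (adjusted p = 4.88e-09). Cdkn2a was listed at 0 beside all of these changes. The regulators named here are described for Cdkn2a, and none is named for Cdkn1b, Cdkn2c or Cdkn2d. Whether the list's changes had a part in those of Cdkn1b, Cdkn2c and Cdkn2d was not tested.

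Of 13 tested genes of the ARF and p53 axis, 9 rose and 2 fell in sgHcar1 cells, and 7 rose and 3 fell in sgControl cells, with medians of 0.47 in sgHcar1 cells and 0.32 in sgControl cells. Among all genes, 36.8% were higher and 35.4% lower in sgHcar1 cells, and 33.9% higher and 31.9% lower in sgControl cells. Mdm2, the p53 ubiquitin ligase and p53 target, averaged 121 ± 5.25 FPKM in sgHcar1 lactate and 31.5 ± 0.767 in sgHcar1 PBS, and 17.4 ± 0.826 in sgControl lactate and 8.61 ± 0.717 in sgControl PBS. It rose by 1.91 ± 0.06 in sgHcar1 cells (adjusted p = 1.20e-10) and by 0.94 ± 0.06 in sgControl cells (adjusted p = 6.87e-08), as Cdkn1a did. Pmaip1, a p53 target that promotes cell death, was listed at 0 in all sgHcar1 libraries and averaged 30.6 ± 1.70 FPKM in sgControl lactate and 11.4 ± 0.871 in sgControl PBS.

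The 22 tested genes for turnover of cyclin D and p27 protein went both ways, 8 up and 9 down in sgHcar1 cells and 8 up and 10 down in sgControl cells, with medians of -0.08 in sgHcar1 cells and -0.06 in sgControl cells. The shares of all genes were 36.8% up and 35.4% down in sgHcar1 cells, and 33.9% up and 31.9% down in sgControl cells. Gsk3b, a kinase that marks cyclin D1 for export and destruction, rose by 0.81 ± 0.04 in sgHcar1 cells (adjusted p = 1.59e-08) and by 0.86 ± 0.04 in sgControl cells (adjusted p = 1.61e-08). Cks1b, the cofactor of SCF-SKP2 for p27, fell by 0.62 ± 0.06 in sgHcar1 cells (adjusted p = 2.38e-06) and by 0.78 ± 0.06 in sgControl cells (adjusted p = 5.49e-07). Cryab, a chaperone that serves as a cofactor of the cyclin D1 ligase FBXO4, rose by 1.04 ± 0.08 in sgHcar1 cells (adjusted p = 3.50e-07) and fell by 1.32 ± 0.08 in sgControl cells (adjusted p = 7.87e-08). Protein levels of the cyclins and of p27 were not measured here.

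The genes most like each member over the 12 libraries were found by Pearson correlation of log2 levels among 7403 tested genes with a symbol and a mean of at least 5 FPKM. The libraries form 4 groups, so high values are common, and these are descriptions. Ccnd1 was most like Ccna2 (r = 0.998), Fkbp5 and Gpsm2, with 285 genes above 0.95. Cdkn2c was most like Kif4, E2f8 and Kif20b (r = 0.997 to 0.996), of which Kif4 and Kif20b encode mitotic motor proteins. Cdkn2d was most like Pgp (r = 0.998), Lamtor1 and Pcolce. Ccnd3 was most like Cbx5 (r = 0.997), Spns2 and Cnot9, and Ccnd2 was most like Glce (r = 0.997), Uri1 and Rnf44. Cdkn1b was most like Col16a1 (r = 0.989) and Tbkbp1. Fewer genes passed 0.95 for Ccnd2 (68) and Cdkn1b (76) than for Ccnd3 (178), Cdkn2c (215) and Cdkn2d (170).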

How the data were processed

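Expression was measured by RNA sequencing in 12 libraries. The authors deposited 1 table of FPKM values, a unit named by its column headers, with 42329 entries, of which 1233 are unannotated genes. HISAT2 2.0.5, featureCounts 1.5.0-p3 and GRCm38 are named per the submitters' processing notes, which do not give their roles, while the gene identifiers are of C57BL/6NJ. Columns were matched to groups by their letters, with those of sgHcar1 read by elimination. Linear models were fitted to log2(FPKM + 1) by limma 3.58.1 (R 4.3.3) for the 13736 genes, 1922 of them without a symbol, that reached 1 FPKM in 3 or more libraries, with 1 mean per group over all 12 libraries, an intensity trend and no replicate block. Tests were two-sided with Benjamini-Hochberg adjustment over all genes in each of 5 contrasts and a threshold of 0.05, and the procedure was tested on simulated data. Genes below the filter had exact permutation tests. Read depth is unknown, so the files give no counting error.

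Members and lists were chosen with earlier results of these data known. The rule named the members, Cdk4, Cdk6, Rb1, Cdkn1a, Mtap, Mki67, up to 4 genes of each described list by size of change among those called with a mean of at least 1 FPKM (some of these are not printed), and the 3 genes most correlated with each member, of which 1 is not reported here. Phlda2, Gm12610, Bysl, Oraov1 and Ctnnb1, and genes shown with values in both guide populations after being named in 1, were added after their values were seen. Promoters came from RefSeq's GRCm38.p6 tables; GC and CCAAT boxes were added to the motifs after the sequences were read. Python 3.11.15, numpy 2.4.6, pandas 2.3.3, scipy 1.17.1 and matplotlib 3.10.9 made sums, permutation tests and figures. Alternatives were a pseudocount of 0.1, no filter or one on a mean of 5 FPKM, scaling by median ratios, by quantiles or to library sums of 1000000, no trend, array weights, a replicate block, a fit of the 2 compared groups alone, and omission of each library in turn.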

Additional observations from a re-analysis of the deposited data

Results flagged for a closer look

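The lactate effect differed between the guide populations by the test of the difference itself (limma, sgHcar1 minus sgControl, adjusted over 13736 genes) for each tested member: Cdkn2c (-1.50), Cdkn1b (-1.44), Ccnd2 (-1.37), Cdkn2d (-1.12), Ccnd1 (-0.80) and Ccnd3 (-0.30). The same test passed for Mtap, the neighbour of Cdkn2a (-1.18, adjusted p = 1.76e-08), and for Mki67 (-0.52, adjusted p = 3.30e-06). It passed upward for Cdkn1a (0.33, adjusted p = 1.78e-04), though not with quantile normalization (0.05, adjusted p = 3.99e-01) or with library sums set equal (0.10, adjusted p = 1.17e-01). Rb1 passed upward (0.20, adjusted p = 1.62e-02), though not with library sums set equal (0.01, adjusted p = 9.08e-01). Cdk6 passed upward (0.37, adjusted p = 4.39e-02) and missed the threshold under 11 of its alternatives, with adjusted p up to 2.55e-01. Across all genes 59.1% passed this test, so a pass alone does not set a gene apart.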

How the results depend on the processing

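The 30 member results were recomputed under 654 alternatives, of which 624 kept direction and call, 25 lost the call, 3 gained one and 2 turned. The turns were Ccnd3 (-0.13) and Cdkn2d (-0.21) between guides in lactate, with library sums set equal; that scaling lowers all sgHcar1 lactate values relative to the rest. Among other named genes, Mtap in sgControl cells, not called, ranged from -0.0046 to 0.0436 on leaving out 1 library. The count of called members in both directions together was 5 or 6 in every comparison and alternative. By direction it moved more: between guides in lactate, 3 higher and 3 lower became 0 and 5 with library sums set equal, the 1 higher for lactate in sgHcar1 cells (Ccnd2) became 0 under 2 scalings, and the 2 higher in sgControl cells became 1 under 13 alternatives (Cdkn1b lost), and the 1 lower between guides in PBS became 2 under 3 (Cdkn1b gained). Cdkn1c differed between guides by -0.110 to -0.0743 FPKM on leaving out 1 library (exact permutation p 0.00433 to 0.0303), and by -0.286 with library sums set equal, which raises all values. With library sums set equal, all genes split 3991 higher and 5985 lower for lactate in sgHcar1 cells (5050 and 4867 as deposited), 2475 and 5754 for the difference of effects (4170 and 3947), 4032 and 6426 between guides in PBS (5249 and 5280) and 3580 and 7710 in lactate (5678 and 5614). Replicate numbers did not pair the libraries (same-number correlations of deviations -0.0505 to 0.0850); with the replicate block, 6 of 6 members stayed called for lactate in both populations, and Cdkn2d between guides in lactate missed the threshold (0.17, adjusted p = 5.39e-02). FPKM hides depth, so the values near 0 of Cdkn1c, Cdkn2a and Cdkn2b carry no counting interval.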
